A study of Mus musculus with 6 samples.

Results

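The genes of creatine and adenylate energy buffering were followed in differentiating mouse C2C12 cells with and without *Hnrnpa2b1*, which codes for an RNA-binding protein. The set was taken by name from the table of read counts, where it makes up 10 of 46078 listed genes. It comprises the cytosolic creatine kinases *Ckm* and *Ckb*, the mitochondrial creatine kinases *Ckmt1* and *Ckmt2*, the creatine transporter *Slc6a8*, the creatine synthesis enzymes *Gatm* and *Gamt*, the AMP deaminases *Ampd1* and *Ampd3*, and the adenylate kinase *Ak1*.

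C2C12 is an immortalized mouse myoblast line that stops dividing and fuses into myotubes when growth serum is withdrawn. The KO cells carried a CRISPR-Cas9 knockout of *Hnrnpa2b1* and the WT cells did not, and 3 libraries of total RNA were sequenced for each genotype. Both genotypes had spent 2 days in differentiation medium after serum withdrawal, with an insulin, transferrin and selenium (ITS) supplement, and the cells harvested were myoblasts and myotubes together. The methods describe independent clones of each genotype, isolated after puromycin selection of the transfected cells. They do not say which clone gave which library, so the p-values below measure the spread between these 6 libraries.

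A muscle cell that starts to contract spends ATP faster than its mitochondria can replace it. Creatine kinase refills ATP from phosphocreatine, adenylate kinase makes ATP and AMP from a pair of ADP molecules, and AMP deaminase removes the AMP, which keeps that reaction running forward. In developing muscle the brain-type creatine kinase CKB precedes the muscle-type enzyme CKM, and the exchange of the former for the latter is a long-used sign of differentiation.

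The libraries held 33605258 to 40558740 counts. Counts are given as CPM, each gene's count relative to the library's total on a fixed scale, after scaling with edgeR's TMM factors, and levels of different genes are compared only as TPM, which also take transcript length into account. *Hnrnpa2b1* RNA itself lay between 159 and 248.5 CPM in KO and between 225 and 252 CPM in WT, with a log2 fold change of −0.23 (edgeR adjusted p = 0.381), so RNA level does not separate the labels. The study's methods state that loss of the protein in the KO clones was checked by immunofluorescence and Western blot, which were not analysed here. The defining genes of differentiated muscle were abundant in both genotypes. Their summed level over the 6 listed genes was 18562.5, 7373 and 6637 CPM in KO libraries 1, 2 and 3 and 13869 to 17086 CPM in WT. By this sum KO library 1 stood above the WT libraries and KO libraries 2 and 3 stood below. By gene, KO library 1 lay above every WT library for *Myog*, *Des* and *Acta1* (7023 CPM). It lay among the WT libraries for *Myl4* and below every one of them for *Myh3* (4146 CPM) and *Tnnt2* (1902 CPM). None of the 6 muscle genes passed with edgeR, 0 of 6, whereas *Myh3* and *Tnnt2*, 2 of 6, had an unadjusted p under 0.05 and were called lower by DESeq2. Of 3 myoblast markers, *Pax7* and *Cdh15* were higher and *Myf5* was lower in KO. Of 4 fibroblast markers, *Pdgfra* and *Dpt* were higher in KO, *Col3a1* carried nearly all of the summed level (4960 to 8360 CPM in KO, 3427 to 4493 CPM in WT) and *Thy1* was near 0. Proliferation markers summed to 177 to 342 CPM in KO and 179 to 236 CPM in WT, and of the 4, 0 passed with edgeR and 1, *Mki67*, with DESeq2 and at an unadjusted p under 0.05. Summed adipocyte markers stayed at or below 0.0916 CPM, endothelial markers at or below 0.377 CPM and neural markers at or below 0.308 CPM in every library.

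Of the 10 genes, 9 had enough counts to be tested, and 4 of these 9 (44.4%) differed between KO and WT at an adjusted p under 0.05, beside 22.7% of all 14828 genes tested. This share describes a small set of known genes and was not itself tested. *Ckmt2*, *Gatm* and *Ak1* were lower in KO, a direction that 10.6% of all genes took, and *Ampd3* was higher, a direction that 12.1% took. For the same 4 genes the libraries of the genotypes stood apart with no overlap, which is 44.4% of 9, beside 44.3% of all genes tested. In 3 of them all KO libraries lay below WT, as for 21.6% of all genes. The median log2 fold change over the 9 genes was −0.66, beside 0.03 over all genes, and 7 of the 9 fold changes were below 0. DESeq2 called the same 4 genes, where 24.3% of all genes passed. On TPM, limma tested 8 of the 10 and called *Ckmt2*, *Gatm* and *Ak1*, all lower, where 20.2% of all genes passed (8.46% higher and 11.8% lower). Of these, *Ckmt2* reached the TPM filter through the WT libraries alone, so its TPM call adds no support.

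**Figure D1:**
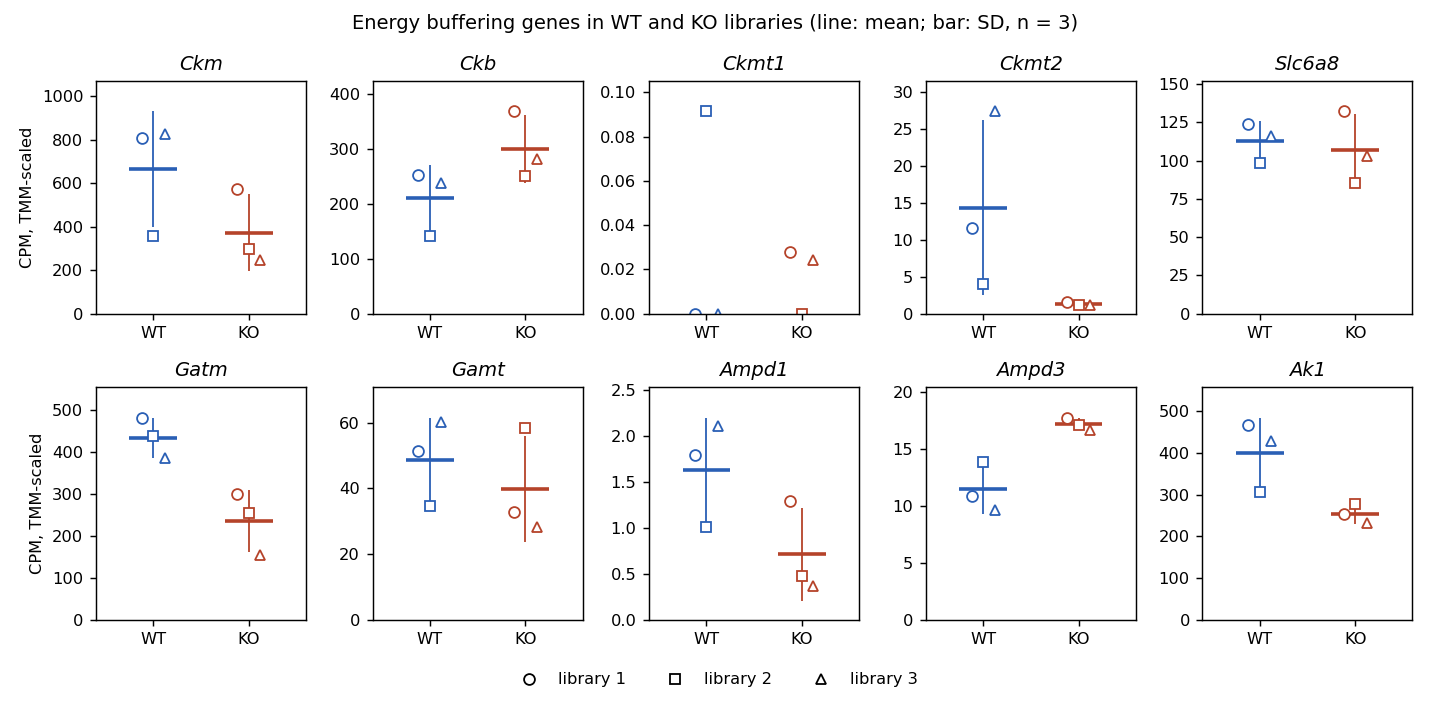
TMM-scaled CPM of each of the 10 genes in the 3 WT libraries (blue) and the 3 KO libraries (red), with a separate linear axis from 0 for each gene. Horizontal lines are means and vertical bars are SD (n = 3), left out for *Ckmt1*, which had 0 to 3 counts. KO and WT libraries are apart for *Ckmt2*, *Gatm*, *Ampd3* and *Ak1* and overlap for the others.

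The 4 creatine kinases catalyse the same reaction in different places, and their coding sequences show how far their transcripts can be told apart. The stretch around the codon of the active-site cysteine is shown because it is the part that the whole family keeps. It covers coding bases 841 to 870 of *Ckm* and *Ckb* and 943 to 972 of *Ckmt1* and *Ckmt2*, in the GENCODE M21 annotation of build GRCm38, 5′ to 3′ on the coding strand, with the cysteine codon in capitals.
Ckm: ctcaccTGCccctccaacctgggcaccggg
Ckb: ctcacaTGCccatccaacctgggcaccgga
Ckmt1: ttgaccTGTccatctaacctgggcactgga
Ckmt2: ttgactTGCccctcgaacctcggaactgga
Within these 30 bases *Ckm* and *Ckb* differed at 3 positions and *Ckm* and *Ckmt2* at 8. Over the whole coding sequence *Ckm* and *Ckb* were identical at 76.4% of 1143 aligned bases, and their longest identical run was 20 bases. The longest run shared by *Ckmt1* and *Ckmt2* was 39 bases. Reads were 150 bases long, so no read that lies wholly in coding sequence could match both genes of a pair without a mismatch.

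*Ckm* codes for the muscle-type cytosolic enzyme, which sits partly at the M band of the sarcomere and is abundant in myotubes. The gene (ENSMUSG00000030399) spans chr7:19411094-19421583 on the plus strand. Its level was 574, 299.5 and 245 CPM in KO libraries 1, 2 and 3 and 808, 357 and 827 CPM in WT libraries 1, 2 and 3. KO library 1 lay above WT library 2, so the groups overlapped, and the range of the WT libraries alone was wider than the distance between the group means. The means were 373 ± 176 CPM in KO and 664 ± 266 CPM in WT (SD, n = 3). This log2 fold change of −0.83 (SE 0.41, 95% interval −1.77 to 0.11, edgeR adjusted p = 0.170) does not pass. The direction was negative in all 12 alternatives, from −1.29 to −0.60 with adjusted p from 0.00265 to 0.397. The gene passed without KO library 1 (log2 fold change −1.29, adjusted p = 0.0262) and with no filter on low counts (adjusted p = 0.00265). On TPM, limma gave −0.87 (adjusted p = 0.1003), and the gene passed there with a replicate block (adjusted p = 0.0258), without KO library 1 (0.0241) and without WT library 2 (0.0273). KO library 1 also held the highest summed level of muscle genes, 18562.5 CPM, and the part of that in the *Ckm* result was not tested. In bulk RNA fewer myotubes and less *Ckm* RNA per myotube cannot be told apart.

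The 3 well-expressed genes most like *Ckm* across the 6 libraries, by Pearson's r of log2 CPM among 5464 genes, were *Dirc2* (r = 0.989), *Tpm2* (r = 0.985) and *Spats2* (r = 0.980). *Tpm2* codes for a tropomyosin of the thin filament. These correlations are a description over 6 libraries, in which both genes of a pair share the library, its depth and its genotype, and carry no test.

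*Ckb* codes for the brain-type cytosolic enzyme, which myoblasts make before CKM. The gene (ENSMUSG00000001270) spans chr12:111669355-111672338 on the minus strand. Its level was 368, 250.1 and 280.4 CPM in KO libraries 1, 2 and 3 and 251, 141 and 238 CPM in WT libraries 1, 2 and 3. The KO libraries were at or above the WT libraries except that KO library 2 lay just under WT library 1, so the groups met at their edges. The means were 299 ± 61.1 CPM in KO and 210.2 ± 59.9 CPM in WT (SD, n = 3), a 1.42-fold difference. The log2 fold change of 0.51 (SE 0.25, 95% interval −0.06 to 1.08, edgeR adjusted p = 0.167) does not pass, and it passed in none of 12 alternatives.

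*Ckb* lies on a chromosome whose genes were shifted as a group. Against the median of all genes, the middle one of the other 482 tested genes of chromosome 12 was shifted by 0.35 on the log2 scale, and 73.2% of these genes lay above that median. For the 66 tested genes between 110 and 120 Mb the shift was 0.34. With the chromosome's median taken out, the log2 fold change of *Ckb* was 0.12 (edgeR adjusted p = 0.744). The genes most like *Ckb* were *Dnal1* (r = 0.978), *Letm1* (r = 0.975) and *Nrap* (r = 0.974). *Letm1* codes for a protein of the inner mitochondrial membrane and *Nrap* for a protein of assembling myofibrils.

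The balance of *Ckm* and *Ckb* was taken within each library, so that a library's depth drops out. The ratio of *Ckm* TPM to *Ckb* TPM was 2.10, 1.68 and 1.18 in KO libraries 1, 2 and 3. It was 4.49, 3.53 and 4.88 in WT libraries 1, 2 and 3. Every KO library lay below every WT library, including KO library 1, and *Ckm* exceeded *Ckb* in all 6. The means were 1.65 ± 0.462 in KO and 4.30 ± 0.696 in WT (SD, n = 3). The difference of mean log2 ratios was −1.41, and the exact two-sided permutation test gave p = 0.1, the smallest that 3 libraries against 3 allow. The difference was −1.37 when CPM replaced TPM, and between −1.60 and −1.18 when single libraries were left out. The chromosome 12 median of 0.35 enters this ratio through *Ckb*, and its part in the difference was not tested.

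**Figure D2:**
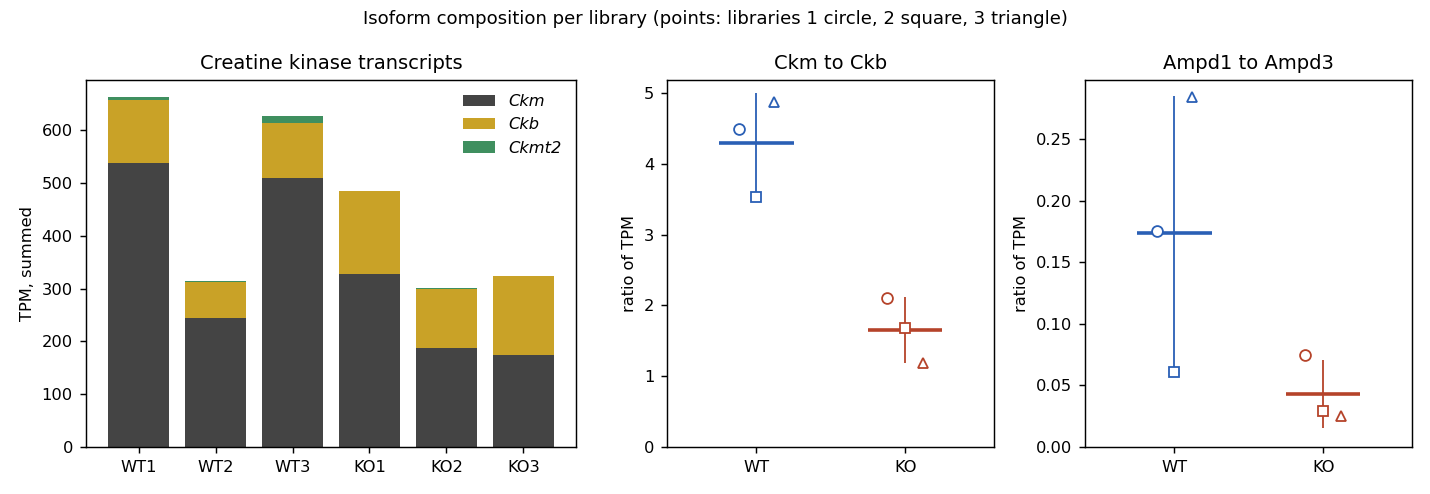
Left, summed TPM of *Ckm*, *Ckb* and *Ckmt2* in each library as stacked bars. Middle and right, the ratio of TPM of *Ckm* to *Ckb* and of *Ampd1* to *Ampd3*, with libraries as points, means as horizontal lines and SD as vertical bars (n = 3), on linear axes from 0. The *Ckm* to *Ckb* ratio lay between 1.18 and 2.10 in KO and between 3.53 and 4.88 in WT, whereas the *Ampd1* to *Ampd3* ratio overlapped between genotypes.

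*Ckmt2* codes for the sarcomeric mitochondrial creatine kinase, which sits between the mitochondrial membranes of striated muscle and passes the energy of ATP to creatine. The gene (ENSMUSG00000021622) spans chr13:91853387-91876885 on the minus strand. It had 55, 49 and 46 counts in KO libraries 1, 2 and 3 and 403, 133 and 1016 counts in WT libraries 1, 2 and 3. As CPM this was 1.54, 1.12 and 1.12 in KO and 11.7, 4.05 and 27.4 in WT. The KO libraries were low and close together, and the WT libraries were all higher and differed widely among themselves. The means were 1.26 ± 0.240 CPM in KO and 14.4 ± 11.9 CPM in WT (SD, n = 3), an 11.4-fold lower level in KO. The log2 fold change was −3.51 (SE 0.64, 95% interval −5.0 to −2.02, edgeR adjusted p = 0.00996).

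*Ckmt2* was the only one of the 10 genes that passed in all 12 alternatives, with log2 fold changes from −3.96 to −2.67 and adjusted p from 1.63e-18 to 0.0403. Leaving out WT library 3, where it was highest, gave the smallest change, −2.67. Leaving out KO library 1 did not end the call. On TPM the levels were 0.528 to 0.696 in KO and 1.97 to 12.8 in WT, and limma on log2(TPM + 1) gave −2.01 (SE 0.45, adjusted p = 0.0175), a scale that understates changes of low genes. The gene entered the TPM test only through its WT libraries, since all KO libraries were under the filter of 1 TPM, and with no TPM filter the call was lost (adjusted p = 0.325). An exact permutation test on CPM gave p = 0.1, the smallest possible.

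*Ckmt1*, the ubiquitous mitochondrial creatine kinase of brain and other tissues outside striated muscle, was at background. The gene (ENSMUSG00000000308) spans chr2:121357714-121363737 on the plus strand. It had 1, 0 and 1 counts in KO and 0, 3 and 0 counts in WT, at or below the limit of 3 counts, which is 0.0687 to 0.0914 CPM at these depths. It was not tested, and no fold change is given.

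Together the 4 creatine kinases summed to 485, 300.3 and 324 TPM in KO libraries 1, 2 and 3 and to 662, 314 and 627 TPM in WT libraries 1, 2 and 3. The sums overlapped, with WT library 2 among the KO libraries (difference of mean log2 sums −0.49, exact permutation p = 0.3). The makeup of the sum did not overlap. *Ckm* took 61.4 ± 6.91% of it in KO and 79.9 ± 2.19% in WT, and *Ckb* took 38.4 ± 6.87% and 18.9 ± 2.74% (SD, n = 3). The mitochondrial genes took 0.176 ± 0.0325% in KO and 1.18 ± 0.747% in WT. Each of the 3 shares gave an exact permutation p of 0.1, the smallest possible, and the shares are not independent since they sum to the whole.

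The first step of creatine synthesis is made by the mitochondrial enzyme GATM, which joins the amidino group of arginine to glycine and makes guanidinoacetate. In the body this step is prominent in kidney and pancreas rather than in muscle. *Gatm* (ENSMUSG00000027199) spans chr2:122594467-122611303 on the minus strand. Its level was 299, 253 and 153 CPM in KO libraries 1, 2 and 3 and 479, 437 and 384 CPM in WT libraries 1, 2 and 3. All KO libraries lay below all WT libraries, KO library 3 lowest. The means were 235 ± 74.7 CPM in KO and 433 ± 47.8 CPM in WT (SD, n = 3), 1.84-fold lower in KO, or a log2 fold change of −0.88 (SE 0.25, 95% interval −1.45 to −0.31, edgeR adjusted p = 0.0386).

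The direction of *Gatm* held in all 12 alternatives (−1.10 to −0.65), and its call held in 7. It was lost in the smaller fits without KO library 2 (adjusted p = 0.0640), KO library 3 (0.0518), WT library 1 (0.140), WT library 2 (0.0834) or WT library 3 (0.0761). It held without KO library 1 (adjusted p = 0.0107). DESeq2 gave a log2 fold change of −0.91 (adjusted p = 0.00454), and limma on TPM gave −0.92 (adjusted p = 0.0160).

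GAMT methylates guanidinoacetate to creatine. *Gamt* (ENSMUSG00000020150) spans chr10:80258151-80261012 on the minus strand. It was at 32.7, 58.3 and 28.2 CPM in KO libraries 1, 2 and 3 and at 51.3, 34.6 and 60.1 CPM in WT libraries 1, 2 and 3. KO library 2 was among the highest and WT library 2 among the lowest, so the groups overlapped. A log2 fold change of −0.29 was estimated (SE 0.30, 95% interval −0.99 to 0.41, edgeR adjusted p = 0.512), an interval that reaches from nearly a 2-fold decrease to a modest increase. Single libraries moved this value widely. It was −0.67 without KO library 2 (edgeR adjusted p = 0.0942) and −0.09 without KO library 3 (edgeR adjusted p = 0.866).

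SLC6A8 carries creatine into the cell along with sodium and chloride. *Slc6a8* (ENSMUSG00000019558) spans chrX:73673150-73682502 on the plus strand. It was at 132, 85.4 and 103 CPM in KO libraries 1, 2 and 3 and at 124, 98.2 and 116 CPM in WT libraries 1, 2 and 3. The highest and the lowest value were both KO libraries. The log2 fold change was −0.08 (SE 0.18, 95% interval −0.50 to 0.34, edgeR adjusted p = 0.779), and its sign changed in 2 of 12 alternatives. Of the supply route for creatine, the step that passed was therefore *Gatm* alone. The ratio of *Gatm* TPM to *Gamt* TPM, a comparison chosen after seeing the data, was 3.90, 1.85 and 2.38 in KO libraries 1, 2 and 3 and 3.95, 5.46 and 2.74 in WT libraries 1, 2 and 3. The genotypes overlapped (difference of mean log2 ratios −0.59, exact permutation p = 0.2), so the changes of *Gatm* and *Gamt* were not shown to differ. The difference from *Slc6a8* was not tested.

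AMPD1 is the AMP deaminase of skeletal muscle fibres. *Ampd1* (ENSMUSG00000070385) spans chr3:103074014-103099720 on the plus strand. It had 46, 21 and 15 counts in KO libraries 1, 2 and 3 and 62, 33 and 78 counts in WT libraries 1, 2 and 3, or 1.29, 0.481 and 0.366 CPM against 1.79, 1.01 and 2.10 CPM. KO library 1 lay above WT library 2, the same overlap as for *Ckm*. The means were 0.711 ± 0.502 CPM in KO and 1.63 ± 0.565 CPM in WT (SD, n = 3). Its log2 fold change of −1.21 (SE 0.54, 95% interval −2.45 to 0.03, edgeR adjusted p = 0.137) does not pass. It passed only without KO library 1, at −1.95 (adjusted p = 0.0166), the library with the highest summed level of muscle genes.

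AMPD3 is the AMP deaminase of red blood cells, and many other cells make it too. *Ampd3* (ENSMUSG00000005686) spans chr7:110768206-110812405 on the plus strand. It was at 17.8, 17.2 and 16.6 CPM in KO libraries 1, 2 and 3 and at 10.9, 13.9 and 9.65 CPM in WT libraries 1, 2 and 3. The KO libraries were nearly equal and all above WT. The means were 17.2 ± 0.560 CPM in KO and 11.5 ± 2.18 CPM in WT (SD, n = 3), 1.5-fold higher in KO. On the log2 scale the change was 0.58 (SE 0.17, 95% interval 0.18 to 0.99, edgeR adjusted p = 0.0476). Of the blood cell markers *Cd68* was at 1.86 to 3.41 CPM, and *Hbb-bs*, the globin of red cells, had no count in any library.

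The direction of *Ampd3* held in all 12 alternatives (0.44 to 0.73), but the call held in only 3. It was lost without KO library 1 (adjusted p = 0.0637), KO library 2 (0.0792), KO library 3 (0.0848), WT library 1 (0.175) or WT library 3 (0.175), and with another scaling, no filter on low counts, a replicate block or the chromosome's median removed (0.0514 to 0.0739). On TPM it was at 3.81 to 4.09 in KO and 2.04 to 3.21 in WT (limma log2 difference 0.50, adjusted p = 0.0580). *Gm47282* shares exonic positions with *Ampd3* on the same strand, and *Rnf141* and *B430319F04Rik* on the opposite strand, and the use of strand in counting is not given in the sources used here. *Rnf141* was at 26.6 to 32.3 CPM in KO and 25.4 to 27.3 CPM in WT, with a log2 fold change of 0.15 (edgeR adjusted p = 0.420).

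The ratio of *Ampd1* TPM to *Ampd3* TPM was 0.0745, 0.0289 and 0.0253 in KO libraries 1, 2 and 3 and 0.175, 0.0612 and 0.284 in WT libraries 1, 2 and 3. KO library 1 exceeded WT library 2, so the groups overlapped. The difference of mean log2 ratios was −1.94 (exact permutation p = 0.2), between −2.56 and −1.45 when single libraries were left out. *Ampd3* RNA exceeded *Ampd1* RNA in every library of both genotypes, so the fibre-type isoform was the minor one throughout at 2 days.

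AK1 is the cytosolic adenylate kinase of muscle. *Ak1* (ENSMUSG00000026817) spans chr2:32621758-32635058 on the plus strand. Its level was 253, 278 and 231 CPM in KO libraries 1, 2 and 3 and 467, 306 and 428 CPM in WT libraries 1, 2 and 3. All KO libraries lay below all WT libraries, with KO library 2 and WT library 2 nearest to each other. The means were 254 ± 23.6 CPM in KO and 401 ± 84.1 CPM in WT (SD, n = 3), 1.58-fold lower in KO, or a log2 fold change of −0.66 (SE 0.19, 95% interval −1.09 to −0.22, edgeR adjusted p = 0.0414).

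The direction of *Ak1* held in all 12 alternatives (−0.83 to −0.54), and its call in 6. The call was lost without KO library 2 (adjusted p = 0.0600), KO library 3 (0.109), WT library 1 (0.164) or WT library 3 (0.119), with library totals as the only scaling (0.0699) and with a replicate block (0.0833). DESeq2 gave −0.68 (adjusted p = 0.0109) and limma on TPM −0.72 (adjusted p = 0.0260).

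**Figure D3:**
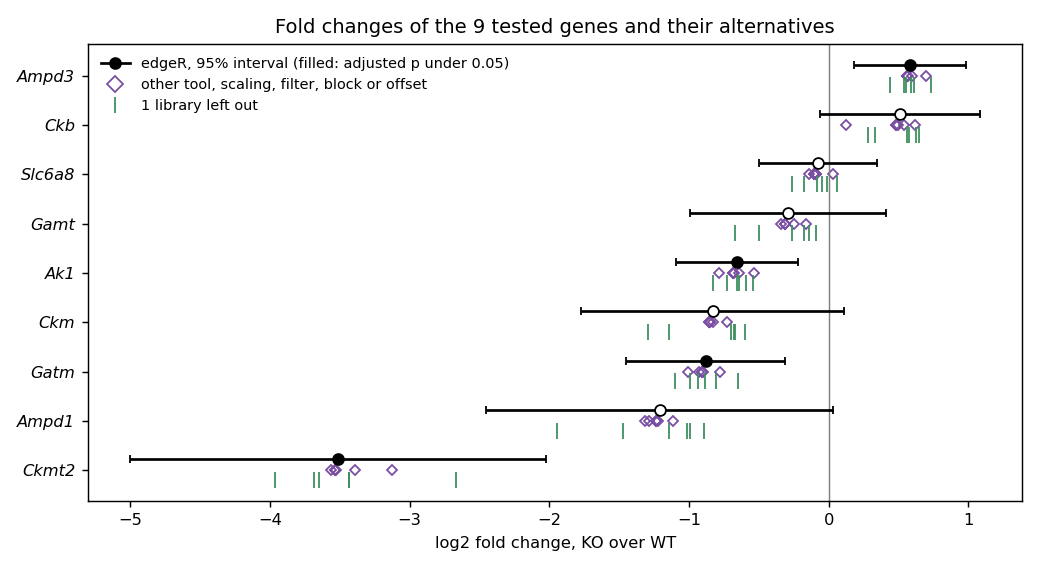
Log2 fold change, KO over WT, of the 9 tested genes with edgeR on counts. Circles with bars are the values with 95% intervals, filled where the adjusted p was under 0.05, diamonds are other tools, scalings, filters, the block and the offset, and ticks are fits with 1 library left out. *Ckmt2* had the largest change, −3.51, and only *Ampd3* and *Ckb* lay above 0 in every fit.

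Per length, the order of the genes in WT ran from *Ckm* (430.1 ± 162 TPM) through *Ak1* (158 ± 28.8), *Gatm* (127 ± 19.3), *Ckb* (97.7 ± 25.9), *Gamt* (32.9 ± 7.46), *Slc6a8* (24.9 ± 2.66), *Ckmt2* (6.85 ± 5.48) and *Ampd3* (2.55 ± 0.598) to *Ampd1* (0.400 ± 0.193 TPM; SD, n = 3). The ranges of *Ak1* and *Gatm*, of *Gatm* and *Ckb*, of *Gamt* and *Slc6a8* and of *Ckmt2* and *Ampd3* overlapped over the WT libraries, so those neighbours were not apart. In KO, *Ckm* (230.3 ± 85.2 TPM) was followed by *Ckb* (139 ± 23.6) and then by *Ak1* (94.7 ± 11.9) and *Gatm* (66.8 ± 14.2). *Ckb* thus stood above *Ak1* in every KO library and below it in every WT library. *Ckmt2* (0.623 ± 0.0865 TPM) stood below *Ampd3* (3.99 ± 0.152 TPM) in KO, with no overlap.

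Promoter windows of RefSeq on build GRCm38.p6, from 250 bases before to 50 after each start site, were found for 8 of the 10 genes. They were searched on both strands for CANNTG, the E-box that myogenic factors such as MyoD and myogenin bind, for its form CAGCTG, for the motif of MEF2 factors and for TATAAA, the core of the TATA box. Of these, CAGCTG stood in 16.3% of all 32851 windows, CANNTG in 72.3%, the MEF2 motif in 3.19% and TATAAA in 13.6%. One match is shown for each of *Ckm*, *Ckmt2* and *Ak1*, which are muscle-type genes, and for *Ckb*, as 30 bases 5′ to 3′ on the gene's strand, with the match in capitals.
Ckm, chr7:19410844-19410873, plus strand: cCAGCTGtcccccgccagctagactcagca
Ckmt2, chr13:91876975-91877004, minus strand: ccttcaaggacaCAGCTGggggagtctgtg
Ak1, chr2:32621569-32621598, plus strand: gtgagacagtgtCAGCTGggaccggttact
Ckb, chr12:111672348-111672377, minus strand: aatgaatgggCTATAAATAGccgccaatgg
CAGCTG began 249 bases before the start of *Ckm*, 107 before that of *Ckmt2* and 177 before that of *Ak1*. It also stood before another start site of *Ak1*, whose window held a MEF2 match as well, and at a start site of *Ckmt1*, the gene at background. The MEF2 match of *Ckb* overlapped a TATAAA and began 29 bases before the start, where a TATA box lies, so it may be read as either. The windows of *Gatm*, *Gamt* and *Ampd3* held neither CAGCTG nor the MEF2 motif, which says only that these letters are not in those windows. A match is a description of sequence and was not tied to the fold changes.

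The wider pathway was read from a list of 45 other genes, of which 36 were tested. Of these, 11 (30.6%, beside 22.7% of all genes) passed, 4 higher and 7 lower in KO, beside 12.1% of all genes higher and 10.6% lower. In its groups of 3 to 8 tested genes, 1 call more or less moves these shares widely, and no group was tested as such. Genotypes stood apart with no overlap in 16 of the 36, beside 44.3% of all genes, and the median log2 fold change was −0.12, beside 0.03 over all genes.

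Among the other adenylate kinases, 1 of 4 tested genes, *Ak5*, was lower in KO and none was higher, beside 10.6% and 12.1% of all genes. *Ak5*, a cytosolic adenylate kinase best known from brain, was at 0.196, 0.229 and 0.366 CPM in KO libraries 1, 2 and 3 and at 3.15, 2.26 and 3.18 CPM in WT libraries 1, 2 and 3. KO and WT were far apart at a low level. The counts were 7, 10 and 15 in KO and 109, 74 and 118 in WT. *Ak5* thus met the filter on low counts through its WT libraries, where it was high, which limits what its call can show. Its log2 fold change was −3.42 (SE 0.38, edgeR adjusted p = 0.00205), 10.7-fold lower in KO, and with no filter on low counts it also passed.

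AMP deaminase feeds the purine nucleotide cycle, in which adenylosuccinate synthase and lyase turn IMP back into AMP. The muscle form of the synthase, *Adssl1*, was at 70.9, 51.0 and 36.8 CPM in KO libraries 1, 2 and 3 and at 153, 86.9 and 131 CPM in WT libraries 1, 2 and 3. All KO libraries lay below WT, with a log2 fold change of −1.23 (SE 0.28, edgeR adjusted p = 0.0206). *Adssl1* lies on chromosome 12 like *Ckb*, where the median gene moved the opposite way, by 0.36 without *Adssl1*. The other 3 tested genes of the cycle, *Ampd2*, *Adss* and *Adsl*, did not pass, so 1 of 4 passed, beside 22.7% of all genes.

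AMP-activated protein kinase (AMPK) senses AMP and ADP. Of 8 tested genes of the kinase and its activator, 3 were lower in KO and none was higher. Over all genes 10.6% were lower and 12.1% higher. *Prkaa2*, the catalytic subunit that prevails in muscle, was at 10.1, 15.3 and 12.7 CPM in KO libraries 1, 2 and 3 and at 44.3, 25.2 and 42.8 CPM in WT libraries 1, 2 and 3. It was 2.95-fold lower in KO, with a log2 fold change of −1.56 (SE 0.25, edgeR adjusted p = 0.00669). *Prkab2*, a scaffold subunit also prominent in muscle, had a log2 fold change of −0.76 (adjusted p = 0.0188), and *Stk11*, which codes for the upstream kinase LKB1, had −0.49 (adjusted p = 0.0327). The KO libraries lay below all WT libraries for all 3. The subunits were not all lower. *Prkag3*, a regulatory subunit of the kinase named after its value was seen, had a log2 fold change of 0.04 (edgeR adjusted p = 0.933). It was at 44.2 to 116 CPM in KO and 63.0 to 83.8 CPM in WT, with KO library 1 highest.

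Nucleotides leave mitochondria through the ADP/ATP carriers and the voltage-dependent anion channels. Here 2 of 5 tested genes were lower in KO, beside 10.6% of all genes. The channel gene *Vdac3* was at 278, 213 and 189 CPM in KO libraries 1, 2 and 3 and at 431, 462 and 407 CPM in WT libraries 1, 2 and 3 (log2 fold change −0.94, SE 0.18, edgeR adjusted p = 0.0109). *Vdac1* was at 212 to 309 CPM in KO and 395 to 492 CPM in WT (log2 fold change −0.77, adjusted p = 0.0229). The carrier of muscle and heart, *Slc25a4*, missed the threshold with a log2 fold change of −0.67 (adjusted p = 0.0503), and is named after its value was seen.

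The 4 higher genes were 2 of 5 tested nucleoside diphosphate kinases and 2 of 7 tested genes of AMP breakdown and salvage. Over all genes 12.1% were higher and 10.6% lower, and in these groups 0 passed as lower. The other genes did not all rise. Log2 fold changes were below 0 for 2 of the 5 and 3 of the 7, and the group medians were 0.34 and 0.03. *Nme7* was at 11.9, 21 and 14.6 CPM in KO libraries 1, 2 and 3 and at 8.04, 5.97 and 8.03 CPM in WT libraries 1, 2 and 3 (log2 fold change 1.11, SE 0.25, edgeR adjusted p = 0.0186). *Nme1* had a log2 fold change of 0.62 (adjusted p = 0.0343), and it is uncertain because it shares exons with a readthrough gene, *Gm20390*. *Pnp*, purine nucleoside phosphorylase, was at 10.4, 15.2 and 18.0 CPM in KO libraries 1, 2 and 3 and at 4.43, 5.27 and 5.23 CPM in WT libraries 1, 2 and 3. Every KO library was above every WT library. Its log2 fold change was 1.55 (SE 0.24, adjusted p = 0.00545), with the near-identical neighbour *Pnp2* able to share its reads. *Ada*, adenosine deaminase, was at 1.40 to 3.27 CPM in KO and 0.997 to 1.07 CPM in WT (log2 fold change 1.21, adjusted p = 0.0496). It lies on a 10-Mb stretch of chromosome 2 whose other genes had a median log2 fold change 0.51 above that of all genes. That shift was not removed in any fit. The median of the whole chromosome lay 0.09 above that of all genes. With the chromosome's median removed, the log2 fold change of *Ada* was 1.09 and its call was lost (edgeR adjusted p = 0.0687). Of the 3 tested transporters of creatine and its precursors, 0 passed with edgeR, beside 22.7% of all genes. With DESeq2 0 passed, and 0 had an unadjusted p under 0.05.

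All 11 calls kept their direction in all 12 alternatives. *Ak5*, *Prkaa2* and *Pnp* passed in every one, and *Vdac3* in all but the fit without WT library 1 (adjusted p = 0.0544). Without WT library 1, 8 of the 11 calls were lost (adjusted p 0.0544 to 0.160), without WT library 3, 7 (0.0647 to 0.152), and without KO library 3, 6 (0.0522 to 0.133). Without WT library 2, 4 were lost (0.0596 to 0.113), without KO library 2, 2 (0.0511 and 0.0912), and without KO library 1, 1 (*Nme1*, 0.0552). A replicate block ended the calls of *Stk11*, *Nme1* and *Ada* (0.0610 to 0.0836), library totals as the only scaling that of *Stk11* (0.0877), and RLE factors that of *Ada* (0.0517). Some called genes share exonic positions with genes on the opposite strand. These are *Nme7* (*Atp1b1*, *Blzf1*), *Ak5* (*Zzz3*, *AI115009*), *Stk11* (*Cbarp*), *Prkab2* (*Gm17651*) and *Pnp* (*Gm38316*). As for *Ampd3*, the use of strand in counting is not given, and the part of these overlaps in the calls was not tested.

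**Figure D4:**
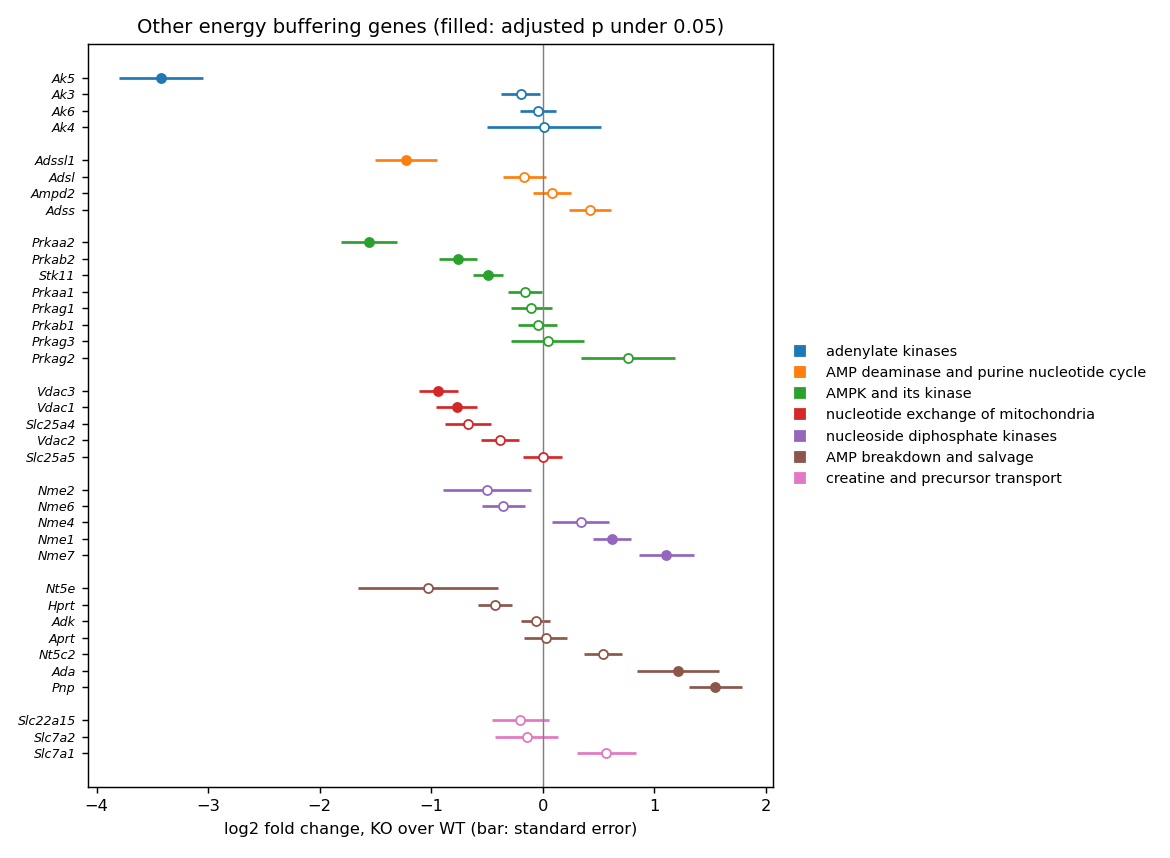
Log2 fold change, KO over WT, with edgeR on counts for the 36 tested genes of the wider pathway, grouped by role. Bars are standard errors and filled points passed an adjusted p of 0.05. *Ak5* at −3.42 and *Prkaa2* at −1.56 lie furthest below 0, and *Pnp* at 1.55 furthest above.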

How the data were processed

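Total RNA of 3 KO and 3 WT libraries was sequenced in paired reads of 150 bases. STAR was the aligner, and the authors deposited raw counts of reads per gene, made with featureCounts. The submitters' processing notes also name StringTie, whose TPM values the authors deposited per library. The annotation release, the version of the counter and the use of strand are not given in the sources used here. The study's methods name GRCm39 and the submitters' processing notes mm9, but the coordinates in the deposited tables match GRCm38, the build used here: 83.2% of 45137 genes had the same start and end in GENCODE M21, and 99.9% overlapped.

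Here counts were scaled with TMM, filtered with filterByExpr and put to a two-sided quasi-likelihood test in edgeR 4.0.16 in R 4.3.3, with genotype alone in the design and Benjamini-Hochberg adjustment over all 14828 genes tested at a threshold of 0.05. Of 46078 genes, 30252 had a count, and 5781 differed at an unadjusted p under 0.05. TPM values were tested with limma 3.58.1 on log2(TPM + 1) where 3 or more libraries reached a TPM of 1. Ratios of 3 libraries against 3 were compared by exact permutation tests. Depth gave a limit of 3 counts, 0.0687 to 0.0914 CPM, which covers counting error only. No library repeated another: the chi-square per degree of freedom within a genotype was 46.6 to 171. Alternatives were DESeq2 1.42.0, other scalings (edgeR's RLE factors or library totals only), no filter, a replicate block, an offset for each chromosome's median, and leaving out each library. The steps were tested on simulated data.

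The 10 genes, the pathway list and the markers were chosen with earlier results of these data known. All 10 genes are named, with those of the pathway list that passed and the 3 genes above a mean log2 CPM of 5 most correlated with *Ckm* and with *Ckb*. *Adss1* and *Adss2* on the list, and *Mymk* among the markers, were not found in the table under these symbols. One gene first placed on the pathway list is not reported here, and the counts and median of that list leave it out.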

Additional observations from a re-analysis of the deposited data

How the results depend on the processing

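The directions of *Ckm*, *Ckb*, *Ckmt2*, *Gatm*, *Gamt*, *Ampd1*, *Ampd3* and *Ak1* on counts held under all 12 alternatives, and the call of *Ckmt2* held in each. The log2 fold change of *Slc6a8* changed sign with library totals only (0.0310), and with single libraries left out ran from −0.2646 (without KO replicate 1) to 0.0629 (without KO replicate 2). On TPM, leaving out libraries gave −0.1604 to 0.1536, above 0 without KO replicate 2 and, at 0.05, without WT replicate 1. None of these passed. Of the 10 genes 4 were called, and between 1 (without KO replicates 2 or 3, or WT replicates 1 or 3) and 5 (without KO replicate 1) when single libraries were left out. Of the pathway list 11 were called, and between 3 (without WT replicate 1) and 14 (without KO replicate 1), with 5 without KO replicate 3 and 4 without WT replicate 3. Over all genes 3361 were called, and between 933 (without WT replicate 1) and 4712 (without KO replicate 1), with 1288 without WT replicate 3, 2088 without KO replicate 3 and 2100 without WT replicate 2. On TPM 3 of the 10 genes were called, with none when the TPM filter was removed, 0 to 4 when single libraries were left out, 0 without WT replicate 1 and 1 without WT replicate 3. In each fit without a WT library *Ckmt2* fell under the TPM filter and was not tested, which is part of these lower counts, and the 3 genes called without WT replicate 2 were *Ckm*, *Gatm* and *Ak1*. Fits without a library have fewer samples, and no other cause was tested. Library totals as the only scaling moved the median of all genes by 0.117.

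The labels number the libraries 1 to 3 in each genotype. The correlation of same-numbered deviations was 0.163, −0.122 and −0.0502, so the numbers were not taken to pair libraries. With a replicate block the calls fell from 3361 to 2520 over all genes and from 4 to 2 among the 10, *Ampd3* and *Ak1* being lost.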
